A study of Mus musculus with 8 samples.

Results

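The pentose phosphate and NADPH enzymes described here are a listed set of 10 genes: G6pdx, Pgls, Pgd, H6pd, Taldo1, Tkt, Rpia, Me1, Idh1 and Prps1. A gene was measured where the accession of an array probe led to its symbol. This held for 9 of the 10 genes, with 13 probes, among 14855 tested genes with a symbol. Rpia, which interconverts ribulose and ribose 5-phosphate, was matched to no probe by accession and is not analysed here. All 13 probes were well above background on all 8 arrays and none was saturated, so no member entered through a single group.

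RNA was hybridised to mouse arrays of 1 colour (Cy3), with 2 arrays in each of 4 groups. Keap1 null and wild type (WT) mouse embryonic fibroblasts (MEFs) were each grown in culture dishes and as tumours in nude (nu/nu) mice, called allografts. For the allografts, 3000000 Keap1 null or 10000000 WT cells were injected, and tumours were taken at 100 to 150 mm3. Both lines are named TR, an abbreviation whose meaning the labels do not give. Each genotype was 1 line, so genotype and line cannot be told apart. Nude mice lack a working thymus but keep macrophages, neutrophils, natural killer cells, vessels and other tissue, and a tumour's RNA holds theirs too. Whether replicates 1 and 2 came from separate cultures or animals is not stated, so p-values measure the spread between arrays, which may be technical.

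The pentose phosphate pathway branches from glycolysis at glucose 6-phosphate. Its oxidative branch reduces NADP+ to NADPH, the electron donor of glutathione and thioredoxin recycling and of lipid synthesis, and its non-oxidative branch shuffles sugar phosphates between ribose 5-phosphate and glycolysis. Malic enzyme and the NADP-linked isocitrate dehydrogenases supply NADPH from other routes. Keap1 holds back the transcription factor NRF2 (Nfe2l2) by passing it to a ubiquitin ligase, and in mouse tissues and human cancer cells NRF2 is known to raise several of these enzymes through antioxidant response elements in their genes.

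The core of that element was looked for in promoter windows of the 10 genes. The motif was TGACNNNGC, on both strands, in RefSeq windows of 250 bases before to 50 bases after each annotated start (build GRCm38.p6). It occurred in 4071 of 32851 windows, or 12.4%, and in 3 of the 13 windows of the 10 genes. Matches were found for G6pdx (chrX:74428881-74428997, minus strand), for the downstream one of both annotated Pgd starts (chr4:149166071-149166182, minus strand) and for the upstream one of both Me1 starts (chr9:86695912-86696014, minus strand). The windows of the upstream Pgd start and of the downstream Me1 start held no match. The stretches that hold them are shown 5′ to 3′ along the gene's strand, with the matched bases in capitals. In G6pdx the match reads on the opposite strand and spans positions -57 to -49 from the start, in Pgd it spans 4 to 12, and in Me1 it spans -6 to 3, over the start itself.
G6pdx: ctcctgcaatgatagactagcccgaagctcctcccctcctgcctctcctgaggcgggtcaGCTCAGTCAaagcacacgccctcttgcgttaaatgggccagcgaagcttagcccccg
Pgd: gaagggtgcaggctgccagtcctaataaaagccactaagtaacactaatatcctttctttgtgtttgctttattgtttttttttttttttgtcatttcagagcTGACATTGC
Me1: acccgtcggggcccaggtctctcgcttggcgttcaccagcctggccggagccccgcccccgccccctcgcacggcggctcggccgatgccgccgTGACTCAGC
The windows of Taldo1, Tkt, Idh1, H6pd, Rpia, Pgls and Prps1 did not hold these letters. A match describes letters in the window and says nothing of binding.

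On allograft arrays 69.8% to 74.7% of probes were well above background, and on dish arrays 60.6% to 64.5%. Replicate arrays differed by a median of 0.13 to 0.19 on the log2 scale. Keap1 itself read 2.37 and 2.22 in Keap1 null dishes against 3.32 and 2.99 in WT dishes, while Keap1 null allografts had 1.00 and 0.92 against 2.85 and 2.46 in WT allografts. It was lower in the null line but above background, and whether its probe lies in the deleted part is not known. Nfe2l2 read 4.09 and 4.12 in Keap1 null allografts against 3.44 and 3.56 in WT allografts, 1.52-fold higher (adjusted p = 0.00529), and its dish difference was 0.07 ± 0.10 (adjusted p = 0.743). Of 10 fibroblast markers, 10 were well above background in each of the 4 groups.

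Levels are given on a log2 scale, as processed signal relative to its array's 75th percentile, so a value of 0 is the level of that percentile. Differences are log2 fold changes ± SE from a limma fit over all 8 arrays, and adjusted p-values are Benjamini-Hochberg values over 22919 targets, called below 0.05. Each gene is read from its brightest probe, and levels are compared within a probe, not between genes.

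**Figure D1:**
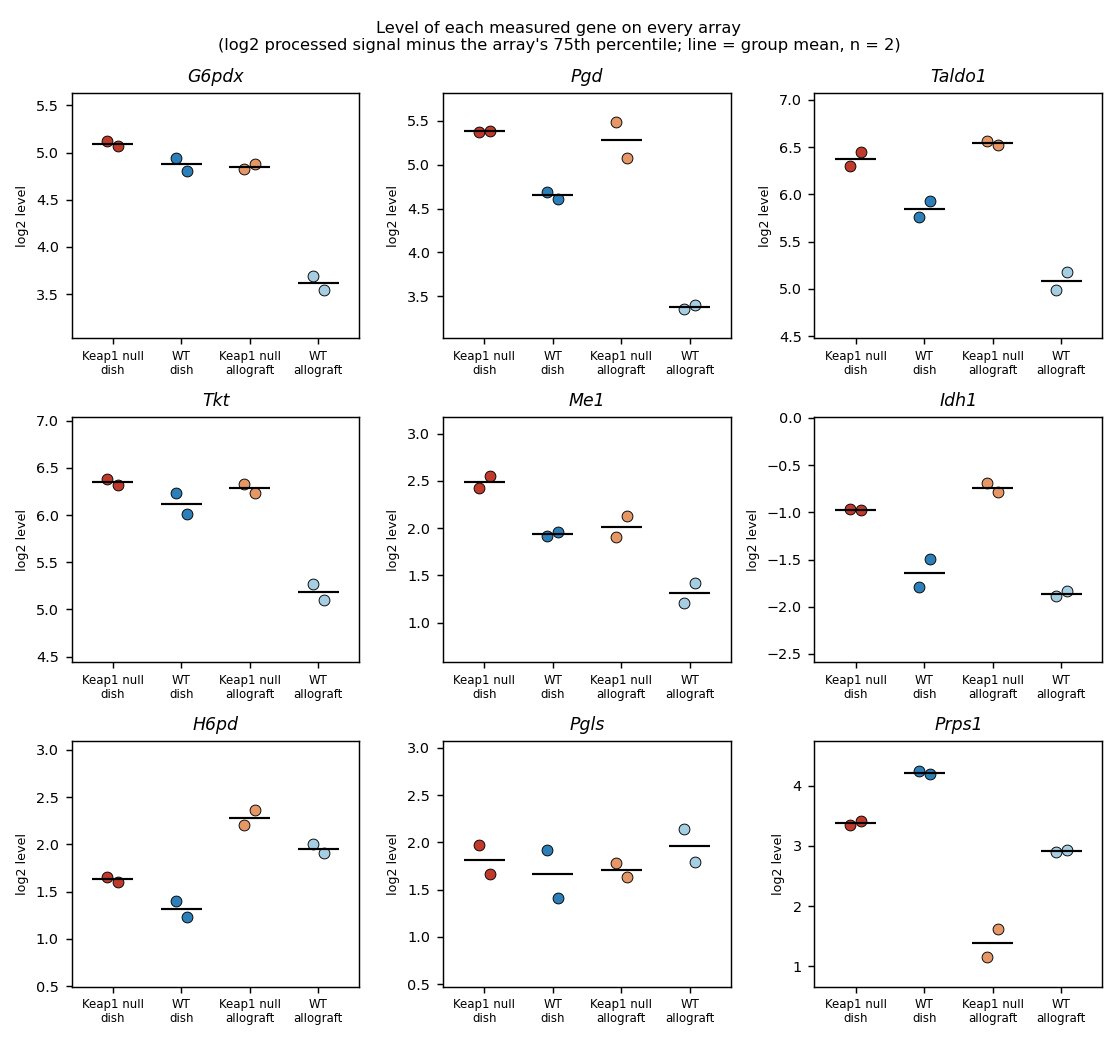
Level of each of the 9 measured genes on all 8 arrays, on the vertical axis as log2 processed signal minus the array's 75th percentile, by group (points: arrays; lines: group means, n = 2). G6pdx, Pgd, Taldo1, Tkt, Me1 and Idh1 were lowest on both WT allograft arrays, while Prps1 was highest in WT dishes and lowest in Keap1 null allografts.

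G6pdx encodes glucose 6-phosphate dehydrogenase, which takes the entry step of the oxidative branch and makes NADPH. Its level was 4.82 and 4.88 in Keap1 null allografts against 3.69 and 3.55 in WT allografts, and the dishes of the Keap1 null line had 5.12 and 5.07 against 4.94 and 4.80 in WT dishes. Both WT allograft arrays lay well below the other 6, and the WT dish and Keap1 null allograft arrays overlapped. G6pdx was 2.35-fold higher in Keap1 null than in WT allografts (1.23 ± 0.10, adjusted p = 0.000279), with 1.13 on slide 1 and 1.33 on slide 2. In dishes the difference was 0.22 ± 0.10 with a 95% confidence interval of -0.03 to 0.46 (adjusted p = 0.194). The retrotransposed copy G6pd2 had similar differences, 0.17 in dishes (adjusted p = 0.299) and 1.25 in allografts (adjusted p = 0.00024). How far the G6pd2 and G6pdx probes bind each other's transcript was not tested.

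Pgls encodes 6-phosphogluconolactonase, which opens the lactone that G6pdx makes. It read 1.97 and 1.66 in Keap1 null dishes against 1.92 and 1.41 in WT dishes, while Keap1 null allografts had 1.78 and 1.63 against 2.14 and 1.80 in WT allografts. The dish groups overlapped, and the allograft groups were just apart. Neither difference was called: 0.15 ± 0.22 in dishes (interval -0.39 to 0.70, adjusted p = 0.715) and -0.26 ± 0.22 in allografts (interval -0.80 to 0.28, adjusted p = 0.4).

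Pgd encodes 6-phosphogluconate dehydrogenase, the other NADPH-forming step of the branch. Its level was 5.37 and 5.39 in Keap1 null dishes against 4.69 and 4.61 in WT dishes, while Keap1 null allografts had 5.48 and 5.07 against 3.36 and 3.40 in WT allografts. All 4 Keap1 null arrays lay above all 4 WT arrays, and the WT allografts were lowest. The gene was 1.65-fold higher in Keap1 null dishes (0.73 ± 0.14, adjusted p = 0.0184) and 3.71-fold higher in the allografts of that line (1.89 ± 0.14, adjusted p = 0.000223). The allograft difference was 2.12 on slide 1 and 1.67 on slide 2. The other Pgd probe gave 0.77 ± 0.10 in dishes (adjusted p = 0.00369) and 1.81 ± 0.10 in allografts (adjusted p = 6.38e-05), in a fit over all tested probes.

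H6pd encodes the hexose 6-phosphate dehydrogenase of the endoplasmic reticulum, which makes NADPH inside that compartment. It read 1.65 and 1.61 in Keap1 null dishes against 1.40 and 1.23 in WT dishes, while Keap1 null allografts had 2.21 and 2.36 against 2.00 and 1.91 in WT allografts. Allograft arrays of both lines were above all dish arrays, and the lines did not overlap in either condition. The line difference was not called in dishes (0.32 ± 0.11, adjusted p = 0.0937) or in allografts (0.33 ± 0.11, adjusted p = 0.0533). With the replicate number as a block the allograft difference was called (adjusted p = 0.0483). It was called under 3 of 19 alternatives in all, and without scaling between arrays it was 0.10 (adjusted p = 0.715). The other H6pd probe gave 0.28 ± 0.11 in dishes (adjusted p = 0.144) and 0.20 ± 0.11 in allografts (adjusted p = 0.205).

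In the non-oxidative branch, Taldo1 encodes transaldolase, which moves 3-carbon units between sugar phosphates. Its level was 6.30 and 6.44 in Keap1 null dishes against 5.76 and 5.93 in WT dishes, while Keap1 null allografts had 6.57 and 6.53 against 4.99 and 5.18 in WT allografts. As for Pgd, all Keap1 null arrays were above all WT arrays. Taldo1 was 1.44-fold higher in Keap1 null dishes (0.53 ± 0.11, adjusted p = 0.025) and 2.76-fold higher in its allografts (1.47 ± 0.11, adjusted p = 0.000246).

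Tkt encodes transketolase, which moves 2-carbon units. Its brighter probe read 6.38 and 6.31 in Keap1 null dishes against 6.23 and 6.01 in WT dishes, while Keap1 null allografts had 6.33 and 6.23 against 5.27 and 5.10 in WT allografts. Again the WT allografts stood below the rest. By this probe Tkt was 2.14-fold higher in Keap1 null allografts than in WT ones (1.10 ± 0.12, adjusted p = 0.000864), and the dish difference was 0.23 ± 0.12 (interval -0.06 to 0.52, adjusted p = 0.251). The other Tkt probe read -2.02 and -1.97 in Keap1 null dishes against -3.00 and -2.73 in WT dishes, while Keap1 null allografts had -2.62 and -2.56 against -3.59 and -3.35 in WT allografts. It gave differences of 0.87 ± 0.13 in dishes (adjusted p = 0.00667) and 0.87 ± 0.13 in allografts (adjusted p = 0.00316). The probes thus differ on whether Tkt rose in Keap1 null dishes, and which transcripts each one reads was not tested.

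**Figure D2:**
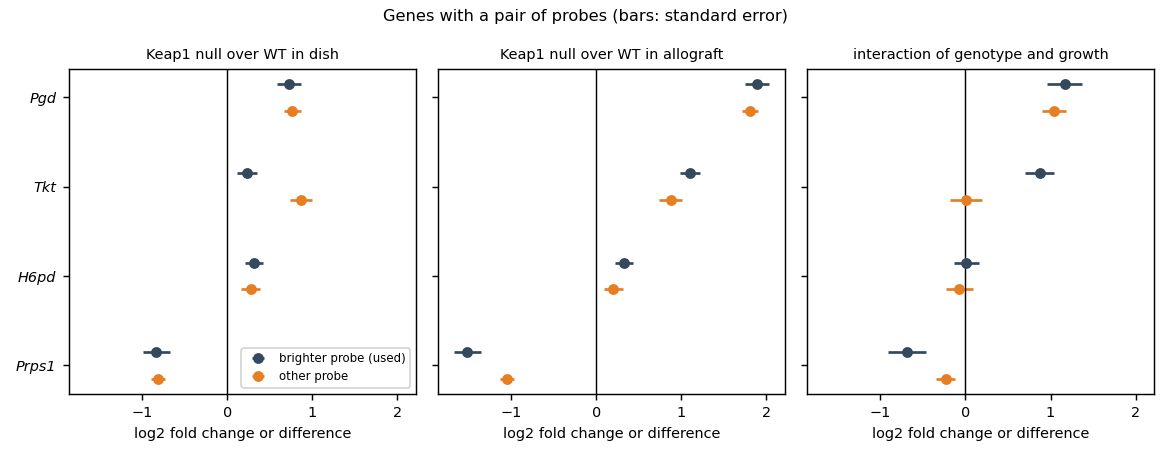
Log2 fold change ± SE (horizontal axis) of both probes of Pgd, Tkt, H6pd and Prps1, for Keap1 null over WT in dish, in allograft, and for the interaction (allograft difference minus dish difference). The Tkt probes part in dishes (0.23 and 0.87) and in the interaction (0.87 and 0.00), while the Pgd probes lie close together in all 3 panels.

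Me1, the cytosolic malic enzyme, makes NADPH while turning malate into pyruvate. Its level was 2.42 and 2.55 in Keap1 null dishes against 1.91 and 1.96 in WT dishes, while Keap1 null allografts had 1.90 and 2.12 against 1.21 and 1.42 in WT allografts. Within each condition the lines were apart, and the WT dishes overlapped the Keap1 null allografts. Me1 was 1.46-fold higher in Keap1 null dishes (0.55 ± 0.12, adjusted p = 0.0292) and 1.62-fold higher in the null allografts (0.70 ± 0.12, adjusted p = 0.00632). Without scaling between arrays neither was called (adjusted p = 0.0619 in dishes and 0.0999 in allografts).

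Idh1, the cytosolic NADP-linked isocitrate dehydrogenase, read -0.97 on both Keap1 null dish arrays against -1.80 and -1.50 in WT dishes, while Keap1 null allografts had -0.69 and -0.79 against -1.89 and -1.83 in WT allografts. All Keap1 null arrays lay above all WT arrays. Idh1 was 1.60-fold higher in Keap1 null dishes (0.68 ± 0.12, adjusted p = 0.0134) and 2.18-fold higher in allografts of the null line (1.12 ± 0.12, adjusted p = 9e-04).

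Prps1 encodes a phosphoribosyl pyrophosphate synthetase, which commits ribose 5-phosphate to nucleotide synthesis. It had the opposite order: 3.35 and 3.41 in Keap1 null dishes against 4.25 and 4.19 in WT dishes, while Keap1 null allografts had 1.16 and 1.62 against 2.89 and 2.93 in WT allografts. No groups overlapped, and the Keap1 null allografts were the lowest. Prps1 was 1.78-fold lower in Keap1 null dishes (-0.83 ± 0.16, adjusted p = 0.0163) and 2.86-fold lower in Keap1 null allografts (-1.52 ± 0.16, adjusted p = 0.000781). By the other Prps1 probe the falls were -0.81 ± 0.08 in dishes (adjusted p = 0.00145) and -1.05 ± 0.08 in allografts (adjusted p = 0.00022).

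**Figure D3:**
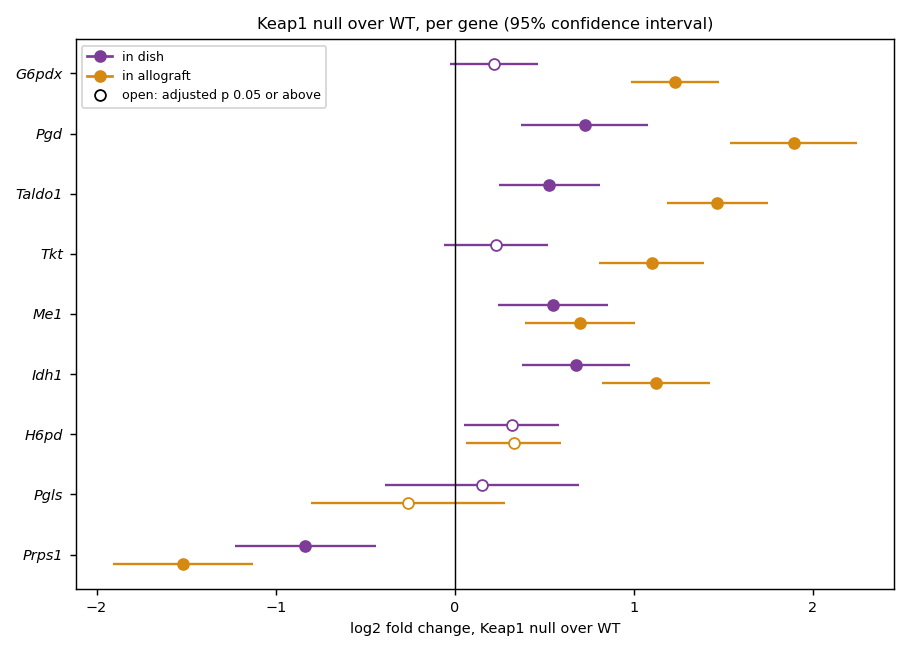
Log2 fold change of Keap1 null over WT (horizontal axis) for the 9 measured genes in dish and in allograft, with 95% confidence intervals; open points were not called. In allografts G6pdx, Pgd, Taldo1, Tkt, Me1 and Idh1 were higher and Prps1 was lower, and the dish and allograft intervals of G6pdx, Pgd, Taldo1 and Tkt do not meet.

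The comparison of the lines in culture asks which of these enzymes differ between them when no host tissue is present. Other genes differed too: of 10 fibroblast markers, 6 were called higher and 1 lower in Keap1 null dishes, with a median of 1.58. Pgd, Taldo1, Me1 and Idh1 rose by 1.44-fold to 1.65-fold in Keap1 null dishes and Prps1 fell, so 5 of 9 measured genes were called, against 21.1% of all targets. Counted by direction, 4 of 9 were higher, against 11.4% of targets, and 1 was lower, against 9.78%. The median of the 9 genes was 0.32, against -0.05 over all targets. Of the 9 genes, 8 had dish groups that did not overlap, against 58.7% of all targets, and 9 had the same sign on slide 1 and on slide 2, against 76.2%. The calls depended on which dish arrays were in the fit. Without Keap1 null dish array 1 or 2, 0 of the 9 were called by limma (5 at an unadjusted p below 0.05 in each case), with adjusted p-values of 0.0777 to 0.158 for the 5 genes, and without WT dish array 1 or 2 only Idh1 was called, with 0.0525 to 0.121 for the other 4. Over all targets the called share was 10.3% and 10.4% without Keap1 null dish array 1 and 2, and 12.8% and 14% without WT dish array 1 and 2. The differences themselves ranged over these 4 fits from 0.69 to 0.76 for Pgd, 0.45 to 0.61 for Taldo1, 0.48 to 0.61 for Me1, 0.52 to 0.83 for Idh1 and -0.86 to -0.80 for Prps1. Without scaling between arrays, Prps1 alone was called.

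In tumours, more of the enzymes were called. G6pdx, Pgd, Taldo1, Tkt, Me1 and Idh1 rose by 1.62-fold to 3.71-fold in Keap1 null allografts, Prps1 fell, and H6pd and Pgls were not called. The 7 of 9 called genes stood against 41.8% of all targets. The 6 higher genes stood against 20.5%, and the 1 lower gene against 21.3%. The median was 1.10, against 0.00 over all targets. All 9 genes, the uncalled H6pd and Pgls included, had allograft groups that did not overlap, against 70.3% of all targets, and the same sign on both slides, against 81.8%. All 7 calls remained whichever single array was left out.

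Host cells differed between the allograft groups. Of 13 macrophage markers with a probe, 11 were lower and 1 was higher in Keap1 null allografts, and their summed level, in units of the array's 75th percentile, was 26.3 to 27.5 in Keap1 null against 99.4 to 109 in WT allografts. In dishes it was 1.82 to 1.88 in the Keap1 null line against 2.38 to 2.78 in WT, with 7 and 6 of the 13, Adgre1 and Lyz2 among them, not above background on either array. Of 10 lymphocyte markers 7 were lower (summed 0.20 to 0.33 against 1.23 to 1.65 in WT allografts, with Cd8a, Cd3d, Ms4a1 and Ncr1 not above background in the null and Cd8a in WT). Of 7 tested neutrophil markers 4 were higher (3.72 to 4.0 against 1.69 to 1.85), and of 10 endothelial markers 4 were lower (16.3 to 17.5 against 19.3 to 20.9). No red cell or keratinocyte marker was called between the lines in allografts, and 1 of 9 muscle and 1 of 7 adipocyte markers were higher. Their summed levels differed widely within some groups, which limits such calls. In Keap1 null against WT allografts they were 17.9 to 31.6 against 13.3 to 20.7 (red cell) and 0.21 to 3.01 against 0.80 to 0.81 (keratinocyte). For muscle they were 2.72 to 11.3 against 1.15 to 4.08, and for adipocytes 15.6 to 18.7 against 6.04 to 18.4. Of 10 fibroblast markers 3 were higher and 4 lower (933 to 999 against 832 to 856). The part of these cells in the enzyme differences was not tested, and in bulk RNA fewer cells of a type and less RNA per cell cannot be told apart.

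Whether the line difference itself differed between tumours and dishes was tested as an interaction. It was larger in allografts for G6pdx (by 1.01 ± 0.14, adjusted p = 0.0035), Pgd (1.17 ± 0.20, adjusted p = 0.0079), Taldo1 (0.94 ± 0.16, adjusted p = 0.00772) and Tkt (0.87 ± 0.17, adjusted p = 0.0112). These 4 of 9 genes, all upward, stood against 32.9% of all targets called. Of all targets, 15.8% were called upward and 17% downward. The median of the 9 was 0.45, against 0.04 over all targets. For Me1 the interaction was 0.15 ± 0.18 (interval -0.28 to 0.59, adjusted p = 0.57), for Idh1 0.45 ± 0.17 (interval 0.02 to 0.87, adjusted p = 0.102), for H6pd 0.01 ± 0.15 (interval -0.36 to 0.38, adjusted p = 0.969), for Pgls -0.41 ± 0.31 (interval -1.18 to 0.35, adjusted p = 0.369) and for Prps1 -0.68 ± 0.22 (interval -1.24 to -0.13, adjusted p = 0.0655). The other Tkt probe gave 0.00 ± 0.19 (adjusted p = 0.991), so the Tkt call holds for its brighter probe only, and the other Pgd probe gave 1.04 ± 0.14 (adjusted p = 0.00286). Prps1 was called without Keap1 null allograft array 2 (-0.92, adjusted p = 0.00908) and Idh1 without WT dish array 1 (0.60, adjusted p = 0.0392). Prps1 was called under 5 of 18 alternatives in all. With quantile normalization Taldo1 (adjusted p = 0.0549) and Tkt (0.0516) were no longer called, while Idh1 (0.0133) and Prps1 (0.0269) were, and without scaling between arrays none of the 4 was (0.122 to 0.256).

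The change from culture to tumour was read in each line separately, on the same arrays as above. In the Keap1 null line 3 of 9 genes were called, against 64.9% of all targets. H6pd rose 1.57-fold in allografts (0.65 ± 0.11, adjusted p = 0.00245), the 1 of 9 called upward, against 35.8% of targets. Prps1 was 3.98-fold lower (-1.99 ± 0.16, adjusted p = 0.000128) and Me1 1.39-fold lower (-0.47 ± 0.12, adjusted p = 0.0173), 2 of 9 downward against 29.1%. The other 6 genes were not called: -0.24 ± 0.10 for G6pdx (adjusted p = 0.0783), -0.10 ± 0.14 for Pgd (0.567), 0.17 ± 0.11 for Taldo1 (0.236), -0.07 ± 0.12 for Tkt (0.654), 0.23 ± 0.12 for Idh1 (0.145) and -0.11 ± 0.22 for Pgls (0.687). The median was -0.10, against 0.03 over all targets. The other Tkt probe fell here (-0.59 ± 0.13, adjusted p = 0.00856). Me1 was not called without Keap1 null dish array 2 (adjusted p = 0.0958) or Keap1 null allograft array 1 (0.0785).

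In the WT line 7 of 9 genes were called, against 68.1% of all targets. In WT allografts G6pdx was 2.38-fold lower than in WT dishes (-1.25 ± 0.10, adjusted p = 0.000118), Pgd 2.41-fold lower (-1.27 ± 0.14, adjusted p = 0.000486) and Prps1 2.48-fold lower (-1.31 ± 0.16, adjusted p = 0.000649). Tkt fell 1.91-fold, Taldo1 1.70-fold and Me1 1.54-fold, so 6 of 9 were lower, against 32.2% of targets. H6pd rose 1.56-fold (0.64 ± 0.11, adjusted p = 0.00242), the 1 of 9 higher, against 35.9%. The median was -0.76, against -0.02 over all targets. Idh1 differed by -0.22 ± 0.12 (adjusted p = 0.166) and Pgls by 0.30 ± 0.22 (adjusted p = 0.267). Pgls was called with the replicate block (adjusted p = 0.0459), with quantile normalization (0.65, adjusted p = 0.0364) and without scaling (0.69, adjusted p = 0.0479), and Idh1 without WT dish array 1 (-0.37, adjusted p = 0.0393).

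Scaling moved the growth comparisons. With each array's median in place of its 75th percentile, the median over all targets was -0.32 in the Keap1 null line and -0.47 in the WT line, and H6pd was no longer called in either (adjusted p = 0.0595 and 0.18). With quantile normalization Taldo1 (adjusted p = 0.718), Tkt (0.126) and Me1 (0.085) lost their calls in the WT line, as they did without scaling (0.188, 0.052 and 0.341). In the Keap1 null line G6pdx (-0.58, adjusted p = 0.00523) and Tkt (-0.41, 0.0434) were called lower with median scaling, and Taldo1 was called higher with quantile normalization (0.52, 0.0123). Me1 lost its call there with quantile normalization (adjusted p = 0.114) and without scaling (0.0872), and in the WT line Idh1 was called lower with median scaling (0.0026) and with quantile normalization (0.00303). The falls of G6pdx and Pgd in the WT line and of Prps1 in both lines were called under each scaling tried. All 13 macrophage and all 10 endothelial markers were higher in the allografts of both lines than in the dishes, and their part in the growth differences was not tested.

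**Figure D4:**
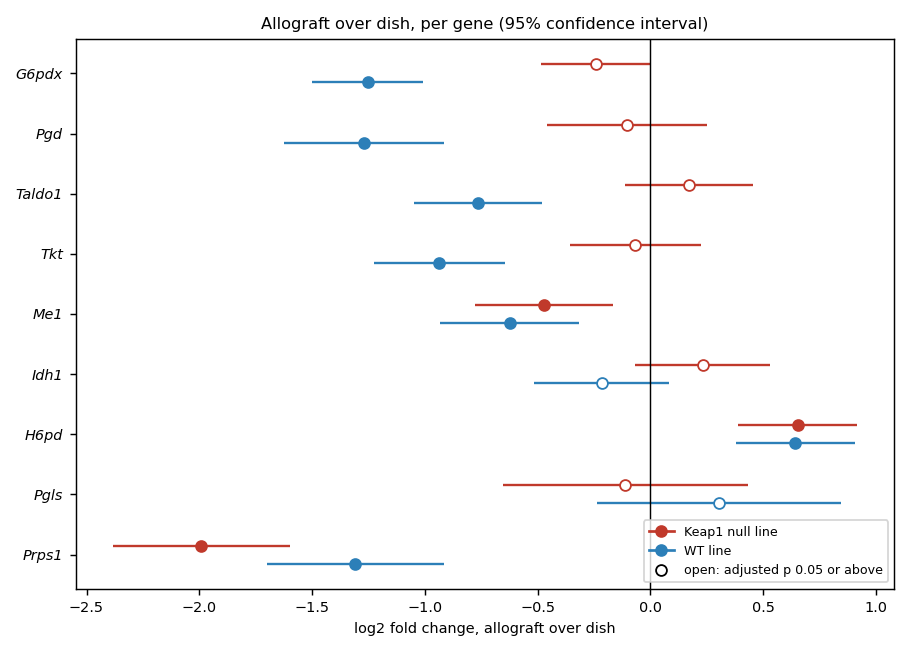
Log2 fold change of allograft over dish (horizontal axis) for the 9 measured genes in the Keap1 null and WT lines, with 95% confidence intervals; open points were not called. G6pdx, Pgd, Taldo1 and Tkt lie near 0 in the Keap1 null line (-0.24 to 0.17) and below 0 in the WT line (-1.27 to -0.76), while H6pd lies above 0 and Prps1 below 0 in both.

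Another 4 gene lists place the enzymes in their surroundings. Their counts stand beside the shares of all targets called, higher and lower. These were 11.4% and 9.78% in Keap1 null dishes, and 20.5% and 21.3% in Keap1 null allografts. For growth as allografts they were 35.8% and 29.1% in the Keap1 null line, and 35.9% and 32.2% in the WT line. For the interaction they were 15.8% and 17%. Some list counts lie near these shares. Among 10 other tested pentose phosphate and ribose genes, 0 were higher and 1 was lower in Keap1 null dishes, namely Rbks, a ribokinase (1.85-fold lower, adjusted p = 0.00744). In allografts 1 was higher and 5 lower. Prps2, the sister synthetase of Prps1, was 2.91-fold lower (adjusted p = 0.000103), Shpk, which phosphorylates sedoheptulose, 3.38-fold lower (0.00124) and Tigar, which lowers fructose 2,6-bisphosphate, 1.82-fold lower (0.00217). The one higher gene was G6pd2. Rbks (1.54-fold lower) and Prpsap1, a regulatory partner of the synthetases (1.40-fold lower), completed the 5 and are named outside the naming rule, after their values were seen. The list's median was -0.07 in dishes, against -0.05 over all targets, and -0.40 in allografts, against 0.00. Of the 10 genes, 1 rose and 7 fell with growth as allografts in the Keap1 null line, 1 rose and 6 fell in the WT line, and the interaction was called upward for 1 and downward for 3. Tigar and Prps2 were also 3.47-fold and 3.17-fold lower in allografts than in dishes of the Keap1 null line (adjusted p = 5.91e-05 and 3.58e-05).

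Among 7 genes of glucose entry and of the branch point at glucose 6-phosphate, 0 were higher and 2 lower in Keap1 null dishes, Pfkp (1.56-fold, adjusted p = 0.00911) and Hk2 (1.35-fold, adjusted p = 0.0413). In allografts 5 were higher and none lower: Pfkp, a phosphofructokinase, 2.19-fold (adjusted p = 0.00046), the hexokinase Hk2 2.09-fold (0.000734), the glucose transporter Slc2a1 1.99-fold (0.000498), the isomerase Gpi1 1.96-fold (0.000601), and, named after its values were seen, the hexokinase Hk1 1.43-fold (0.00705). The median was -0.23 in dishes and 0.97 in allografts, against -0.05 and 0.00 over all targets. The interaction was called upward for 5 of 7, against 15.8% of all targets, led by Pfkp (1.77 ± 0.15, adjusted p = 0.000544) and Hk2 (1.50 ± 0.16, adjusted p = 0.00115). Growth as allografts went with 2 rises and no falls among the 7 in the Keap1 null line, against 35.8% and 29.1% of all targets. In the WT line it went with no rises and 6 falls, against 35.9% and 32.2%. There Hk2 was 2.62-fold and Slc2a1 2.42-fold lower in allografts than in dishes (adjusted p = 0.000114 and 8.33e-05).

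Reductases that spend NADPH included larger fold changes than any of the 9 enzymes. Of 9 tested, 3 were higher and 1 lower in Keap1 null dishes: Cbr3, a carbonyl reductase, 13.8-fold higher (adjusted p = 2.27e-05), the quinone reductase Nqo1 12.2-fold (2.27e-05), the thioredoxin reductase Txnrd1 1.52-fold (0.0151), and the mitochondrial Txnrd2 1.78-fold lower (0.0101). In allografts 7 were higher and 1 lower, with Nqo1 55.1-fold (adjusted p = 5.03e-06), Cbr3 7.57-fold (1.79e-05), the biliverdin reductase Blvrb 4.63-fold (0.00331) and the glutathione reductase Gsr 4.30-fold (2.8e-05) higher. Named after their values were seen, Txnrd1 (4.15-fold, adjusted p = 7.09e-05), Akr1b8 (2.10-fold, 0.000324) and Por (1.53-fold, 0.0114) were the other higher genes, and Txnrd2 was the lower one (1.85-fold, 0.00386). Their median was 0.25 in dishes and 2.05 in allografts, against -0.05 and 0.00 over all targets. Gsr read 3.68 and 3.74 in Keap1 null allografts against 1.57 and 1.64 in WT allografts, while Keap1 null dishes had 2.32 and 2.40 against 2.11 in both WT dishes. Its interaction was 1.85 ± 0.12 (adjusted p = 0.000266), and that of Nqo1 was 2.18 ± 0.14 (adjusted p = 0.000253). With growth as allografts, 6 of the 9 rose and 2 fell in the Keap1 null line, and 1 rose and 6 fell in the WT line. The 1 that rose in the WT line was Cbr3 (3.47-fold, adjusted p = 3.08e-05). The interaction was called upward for 5 and downward for 1. The downward one, named after its value was seen, was also that of Cbr3 (-0.87 ± 0.14, adjusted p = 0.00633).

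Another list was named for other suppliers of NADPH or NADP, and whether each of its genes supplies them was not tested. Of its 11 tested genes, 1 was higher and 4 lower in Keap1 null dishes, and 6 were higher and 4 lower in allografts. Nadk2, the mitochondrial NAD kinase, was higher in both, 1.75-fold (adjusted p = 0.0151) and 2.12-fold (adjusted p = 0.00245), and Aldh1l1, a cytosolic folate enzyme that yields NADPH, was lower in both, 2.27-fold (adjusted p = 0.00521) and 5.67-fold (adjusted p = 0.000134). The median was -0.29 in dishes and 0.41 in allografts, against -0.05 and 0.00 over all targets. Me3 was 1.78-fold lower in Keap1 null allografts (adjusted p = 0.00261) and Idh2, the mitochondrial NADP-linked isocitrate dehydrogenase, 1.82-fold higher (0.000771), both named after their values were seen. With growth as allografts, 3 rose and 3 fell in the Keap1 null line, and 2 rose and 9 fell in the WT line, and the interaction was called upward for 5 and downward for 1. Tktl1, Tktl2 and Prps1l1 did not pass the filter on dim probes, and Nnt and Cbr1 were matched to no probe by accession.

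**Figure D5:**
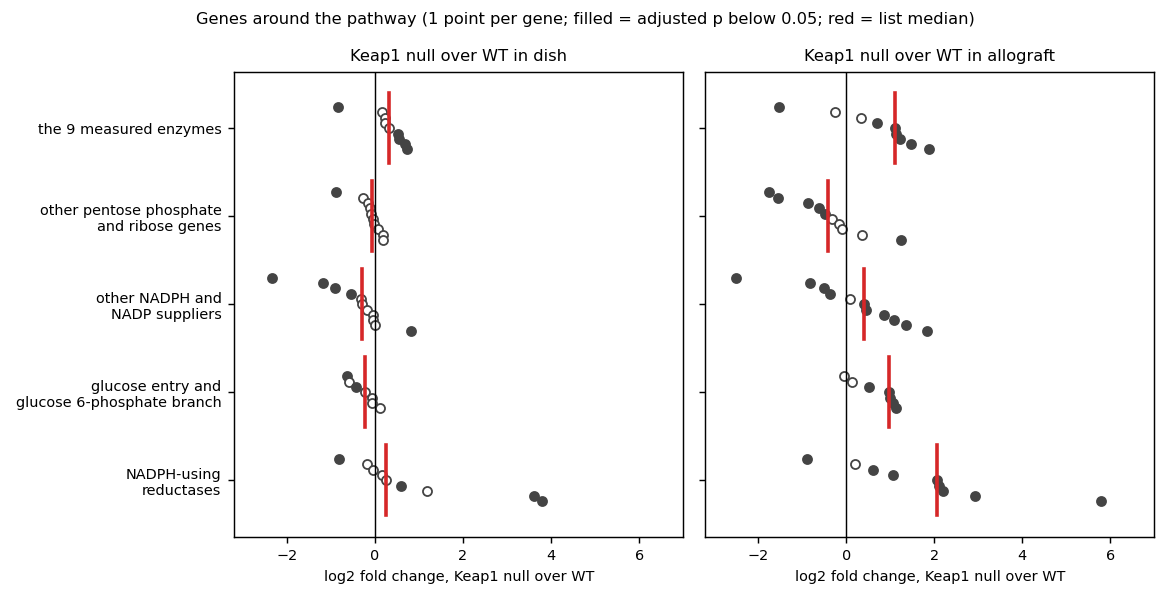
Log2 fold change of Keap1 null over WT (horizontal axis) for the 9 measured enzymes and 4 lists of related genes, in dish and in allograft; each point is a gene, filled where called, and red bars are list medians. The medians of the enzymes are 0.32 and 1.10, and those of the NADPH-using reductases 0.25 and 2.05.

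The genes whose levels followed G6pdx and Pgd most closely over the 8 arrays were taken from 12522 genes well above background on all of them. For G6pdx these were Sde2 (Pearson r 0.997), Id4 (0.993) and Sdhaf2 (0.993), and for Pgd they were Depdc1b (0.995), Specc1 (0.994) and Sord (0.992). The 8 arrays form 4 groups of 2, so these values describe likeness of group levels. Sord, the sorbitol dehydrogenase, read 0.80 and 0.67 in Keap1 null allografts against -1.85 and -1.97 in WT allografts, while Keap1 null dishes had 0.80 and 0.76 against -0.28 and -0.39 in WT dishes. Like Pgd, it was high on all 4 Keap1 null arrays and lowest in WT allografts, which follows from its choice by likeness.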

How the data were processed

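Per the file headers, Agilent Feature Extraction 10.7.3.1 wrote the deposited intensity values, and its processed signal is background-subtracted and not scaled between arrays. The deposited value table holds the same intensity, within 0.4987%. Values were scaled as log2 of the processed signal minus the array's 75th percentile over non-control spots, outlier spots were left out, and spots of a probe were averaged. Symbols came from the RefSeq table of GRCm38.p6 by accession, for names only, since the headers name mm9. The 30355 of 41174 probes well above background on both arrays of a group were tested, the brightest per gene. R 4.3.3 and limma 3.58.1 fitted 4 group means (4 residual and 1.83 prior degrees of freedom) for 5 comparisons. Fold changes are ratios of geometric means, and the number of arrays limits the precision.

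Genes, lists and markers were chosen with earlier results of these data known. Named genes are the 9 enzymes, Keap1, Nfe2l2, called list members with the largest change (up to 4 per line comparison, 2 per growth comparison or interaction) and the 3 genes most like G6pdx and Pgd. Not every value that this rule picks is given above. Me2, for example, was picked as 3.06-fold lower in allografts than in dishes of the Keap1 null line (limma adjusted p = 5.73e-05). The 9 marker lists cover macrophages, neutrophils, lymphocytes, endothelium, red cells, muscle, adipocytes, keratinocytes and fibroblasts. Replicate number, slide and scan coincide, so both blocks are 1 fit. Same-numbered arrays deviated together (r of 0.25 to 0.43 over 6 pairs of groups). The normexp alternative used median in place of mean signals, which the files used here do not hold.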

Additional observations from a re-analysis of the deposited data

Results flagged for a closer look

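For 4 genes the difference between the lines was itself larger in allografts than in dishes by the limma interaction, on the log2 scale. It was 1.01 for G6pdx (1.23 in allografts, 0.22 in dishes), 1.17 for Pgd (1.89 and 0.73), 0.94 for Taldo1 (1.47 and 0.53) and 0.87 for Tkt (1.10 and 0.23). The other Tkt probe gave 0.00. With quantile normalization Taldo1 and Tkt were no longer called (limma adjusted p = 0.0549 and 0.0516). Without scaling between arrays none of the 4 was called (0.122 to 0.256). Groups of 2 arrays allowed no search for single stray arrays.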

How the results depend on the processing

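Over 45 differences (9 genes, 5 comparisons), 821 alternative values were computed: 727 kept their direction and side of the threshold, 47 lost the call, 25 gained it and 22 changed sign. In dishes 5 genes (21.1% of all targets) were called as reported, 1 (11.4%) without scaling, 3 (11.2%) with no filter on dim probes, 3 (15.1%) with only the arrays of both groups in the fit, and 0 to 5 (10.3% to 19.4%) with 1 array left out. Without scaling none of the 4 interactions was called and Prps1, downward, was the 1 call, and with 1 array left out there were 4 to 5. With 1 array left out the allograft count stayed at 7, and the growth counts were 7 to 8 (WT) and 2 to 3 (Keap1 null); the lone array of a group was then assumed to vary like the others. With the replicate block the counts were 5 in dishes, 8 in allografts, 8 and 3 for growth in WT and Keap1 null, and 4 for the interaction. Over all targets the block gave 6517, 11418, 17068, 16486 and 9379 calls, and the dish comparison gave 2620 unscaled against 4843.

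No sign change concerned a called value. For growth in the Keap1 null line, quantile normalization gave 0.058 for G6pdx, 0.19 for Pgd, 0.30 for Tkt and 0.060 for Pgls, median scaling gave -0.17 for Taldo1 and -0.11 for Idh1, and leaving out an array gave -0.27 to 0.047 for Pgls and -0.31 to 0.10 for Pgd. For growth in the WT line, median scaling gave -0.14 for Pgls and the unscaled values gave 0.17 for Idh1. Pgls in dishes ranged over -0.098, -0.0022 and up to 0.41 with 1 array left out. The Me1 interaction was -0.20 unscaled. That of H6pd, 0.01 as reported, was -0.15 (quantile), -0.34 (unscaled), -0.042 (normexp), -0.032 (mean of its probes), -0.076 (other probe, chosen after seeing the data) and -0.073 to 0.095 with 1 array left out. The cause was not tested.

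The share of calls that were higher moved both ways with scaling or background method. In dishes it was 53.7% (45.8% with median scaling to 76.4% unscaled), and in allografts 49% (30.5% unscaled to 54.7% with normexp). For growth it was 52.7% in WT (37.8% with median scaling to 78.5% unscaled) and 55.2% in Keap1 null (40.8% with median scaling to 62.2% unscaled). For the interaction it was 48.2% (23.3% unscaled to 55.5% with normexp).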

Other observations

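Of 4 mitochondrial folate enzymes in the list of other NADPH and NADP suppliers, Aldh1l2, Mthfd2 and Mthfd1l were lower in Keap1 null dishes and higher in Keap1 null allografts, and were picked after their values were seen. Mthfd1l differed by -0.54 in dishes (limma adjusted p = 0.00796) and 0.41 in allografts (adjusted p = 0.0109). The other gene, Mthfd2l, differed by -0.01 in dishes (adjusted p = 0.951) and was higher by 0.45 in allografts (adjusted p = 0.00807). Aldh1l2, the mitochondrial formyltetrahydrofolate dehydrogenase, read -1.91 and -1.68 in Keap1 null dishes against 0.37 and 0.70 in WT dishes. In Keap1 null allografts it read 0.35 and 0.56 against -1.47 and -1.30 in WT allografts. It was thus 5.03-fold lower in Keap1 null dishes (limma adjusted p = 0.000379) and 3.58-fold higher in allografts of the null line (adjusted p = 0.000386), with an interaction of 4.17 ± 0.23 on the log2 scale (adjusted p = 0.000158).

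Mthfd2, a methylenetetrahydrofolate dehydrogenase of mitochondria, read 1.62 and 1.75 in Keap1 null dishes against 2.54 and 2.63 in WT dishes, while Keap1 null allografts had 1.90 and 1.84 against 0.51 and 0.50 in WT allografts. The interaction was 2.27 ± 0.13 (adjusted p = 0.000181), and Mthfd2 fell 4.24-fold in WT allografts relative to WT dishes (adjusted p = 1.27e-05).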
